A study of Arabidopsis thaliana with 6 samples.

Results

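The genes described here form a run of 9 neighbouring loci on chromosome 3 of Arabidopsis thaliana, from NSP3 (AT3G16390) to JAL35 (AT3G16470, also called JR1), each of which encodes a protein with a jacalin-type lectin domain. They are 9 of the 33602 genes listed in the files and were taken by locus identifier. The run was picked with results of the comparison below already known, so the differences between the groups are given for these genes as a description, without a test. RNA-Seq had been performed on primary roots of the cytokinin-deficient quadruple mutant ipt1,3,5,7, in which genes for isopentenyltransferases, the enzymes of the first step of cytokinin synthesis, are mutated. The BAP group was moved, on the nylon mesh it grew on, to plates holding the synthetic cytokinin BAP (6-benzylaminopurine) at 1 µM, and its roots were cut 4 h later. The DMSO group was moved in the same way to plates with DMSO (dimethyl sulfoxide), the control, and its roots were cut 1 h later. Plants of both groups were 7 d old and had the same genotype, the root tips and lateral roots had been removed, and each group held 3 libraries. The comparison was made to find genes that respond to cytokinin while the root prepares to thicken. Because the groups differed in treatment and in time since transfer, an effect of BAP and an effect of the 3 further hours cannot be told apart, and no wild-type roots were among the 6 libraries.

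Jacalin-related lectins are plant proteins that bind sugars, named after a lectin of jackfruit seeds. In Arabidopsis roots several of them gather around PYK10, a beta-glucosidase stored in ER bodies, which are spindle-shaped compartments of the endoplasmic reticulum. When a cell is crushed, PYK10 meets its substrates and its lectin partners in the cytosol, and large complexes form. The nitrile-specifier proteins (NSPs) of the cluster join jacalin-type domains to a kelch repeat domain, and NSPs steer the breakdown of glucosinolates, the mustard oil precursors of this plant family, towards nitriles instead of isothiocyanates. In the run described here the NSP genes stand at one end, and lectins of the PYK10 complex lie beyond them.

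In the deposited coordinates, which the submitters' notes place on TAIR10, the run spanned 36.7 kb of chromosome 3, from base 5562571 to base 5599224. NSP3, NSP1 (AT3G16400), NSP4 (AT3G16410), JAL30 (AT3G16420, also called PBP1 for PYK10-binding protein 1), JAL31 (AT3G16430), MLP-300B (AT3G16440), JAL33 (AT3G16450) and JAL34 (AT3G16460) lie on the plus strand in this order. JAL35 is the only member on the minus strand and ends tail to tail with JAL34. The gaps between neighbours ranged from 211 bases (JAL34 to JAL35) to 4844 bases (NSP4 to JAL30). In between, the files list AT3G16415 and AT3G16432, which had between 0 and 3 counts in every library.

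Within the run, the closest copies were the 3 NSP genes. Over their aligned coding bases in the RefSeq annotation of TAIR10.1, NSP1 and NSP4 were 95.4% identical, NSP3 and NSP1 92.6%, and NSP3 and NSP4 90.9%. NSP1 and NSP4 shared an unbroken stretch of 366 coding bases, in which a short read cannot be assigned to either gene. The windows printed here are 120 bases of one exon from within it, coding bases 882 to 1001 of NSP1 (chr3:5567799-5567918), 1329 to 1448 of NSP4 (chr3:5573828-5573947) and 882 to 1001 of NSP3 (chr3:5563834-5563953), all on the plus strand of TAIR10.1. Capitals mark the bases that differ from NSP1, of which NSP4 had 0 and NSP3 had 11.
NSP1: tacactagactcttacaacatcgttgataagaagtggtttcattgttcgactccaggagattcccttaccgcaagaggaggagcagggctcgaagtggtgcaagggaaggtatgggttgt
NSP4: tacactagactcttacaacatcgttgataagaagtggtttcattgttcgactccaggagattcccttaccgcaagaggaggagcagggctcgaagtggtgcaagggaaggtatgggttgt
NSP3: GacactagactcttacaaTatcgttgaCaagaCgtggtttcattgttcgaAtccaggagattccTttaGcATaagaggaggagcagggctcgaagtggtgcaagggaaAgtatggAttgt

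The second close pair was JAL30 and JAL31, whose coding sequences were 90.0% identical with a longest shared stretch of 100 bases. The windows shown hold this stretch and cover coding bases 566 to 685 of JAL30 (chr3:5580222-5580462) and 560 to 679 of JAL31 (chr3:5582490-5582747), plus strand of TAIR10.1, each across an intron that is left out. JAL31 differed from JAL30 at 2 positions, in capitals.
JAL30: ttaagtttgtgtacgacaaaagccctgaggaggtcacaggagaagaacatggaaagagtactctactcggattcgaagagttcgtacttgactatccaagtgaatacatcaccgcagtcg
JAL31: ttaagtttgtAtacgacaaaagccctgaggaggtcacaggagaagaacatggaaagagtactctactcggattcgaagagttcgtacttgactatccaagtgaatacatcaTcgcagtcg

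The same pair was also alike in the 250 bases before the annotated transcript start (RefSeq, TAIR10.1), which are shown because no other pair of the cluster shared more than 14 bases in a row there. The windows are chr3:5579040-5579289 for JAL30 and chr3:5581318-5581567 for JAL31, on the plus strand. Capitals mark every run of 12 or more bases found in both, 76 bases in each window, and the longest run of 27 bases began 100 bases before the start of JAL30 and 88 bases before that of JAL31.
JAL30: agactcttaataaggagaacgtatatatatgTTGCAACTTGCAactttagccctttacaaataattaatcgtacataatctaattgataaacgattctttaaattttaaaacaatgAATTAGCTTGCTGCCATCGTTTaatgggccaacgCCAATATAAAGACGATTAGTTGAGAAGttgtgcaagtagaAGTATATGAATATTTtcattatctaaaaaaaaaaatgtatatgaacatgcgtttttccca
JAL31: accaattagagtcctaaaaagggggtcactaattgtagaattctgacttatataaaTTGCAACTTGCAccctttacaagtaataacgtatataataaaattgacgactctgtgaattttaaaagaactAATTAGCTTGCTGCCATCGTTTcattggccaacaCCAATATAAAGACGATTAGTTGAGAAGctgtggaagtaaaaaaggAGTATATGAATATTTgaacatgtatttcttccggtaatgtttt

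NSP3 and NSP1 shared 1 run of 14 bases upstream, and JAL33 and JAL34 1 run of 12. Short motifs were looked for on both strands of the 250-base windows. The background was 26711 such windows, those of the nuclear protein-coding genes listed in the files. AGATT, the core motif bound by type-B response regulators of the cytokinin pathway, was in 5 of the 9 windows and in 63.6% of the background. GATCTT was in 2 of 9, against 11.98% of the background. The G-box CACGTG was in 0 of 9, against 6.58%, and TTGAC, the core of the W-box, in 5 of 9 against 44.95%. CATGTG was in 1 of 9 against 11.2%. A match in a window is a description of its letters only.

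The 6 libraries held 19957748 to 20127269 counts, so depth differed little between groups. Of the genes mutated in the line, IPT7 had 8 to 17 counts in BAP libraries and 218 to 236 in DMSO libraries. IPT5 was also lower, with 12, 20 and 9 counts in BAP libraries and 62, 103 and 79 in DMSO libraries. IPT3 had 4, 19 and 17 counts in BAP libraries and 15, 20 and 9 in DMSO libraries. It overlapped between groups, as did IPT1, which had at most 7 counts in any library. The lateral root markers LBD16, LBD29 and GATA23 summed to 4.79 to 5.12 CPM (reads of a gene per 1000000 counted reads, library sizes being scaled by TMM, the trimmed mean of M values) in BAP roots and 29.96 to 31.1 CPM in DMSO roots, and the root tip markers to 13.4 to 19.9 CPM in BAP roots and 22.4 to 25.4 CPM in DMSO roots. Of the root tip markers, PLT2 and WOX5 were lower in BAP roots. PLT1 overlapped between groups, with 209, 125 and 206 counts in BAP libraries and 170, 150 and 140 in DMSO libraries. The phloem markers SUC2 and APL summed to 54.2 to 83.3 CPM in BAP roots and 31.6 to 41.7 CPM in DMSO roots, while the sums of the endodermis, xylem and root hair markers overlapped between groups. The shoot marker RBCS1A had 219, 189 and 538 counts in BAP libraries and 93, 151 and 115 in DMSO libraries. The other shoot marker, LHCB1.1, had 116, 95 and 305 counts in BAP libraries and 115, 112 and 105 in DMSO libraries, with overlapping groups. BAP 3 was also the only library with more than 5 counts of the leaf myrosinase genes TGG1 (60) and TGG2 (34). The part of these differences in the values below was not tested. All cluster members had at least 361 counts in every library. In root segments with many cell types, a change in the number of cells of a type and a change in RNA per cell cannot be told apart.

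All 9 members were more abundant in each of the 3 BAP libraries than in any DMSO library. Their log2 fold changes ranged from 1.45 (MLP-300B) to 3.15 (JAL33) with a median of 2.71, where the median over the 20987 genes tested was 0.00046. A gene was called when the adjusted p of edgeR's quasi-likelihood test was at most 0.05 and the log2 fold change at least 0.5 in size. All 9 members fell under this call as higher, beside 11.6% of all genes tested (22.9% in either direction), and 9 of 9 had no overlap between groups with BAP higher, beside 24.7% of all genes tested (51.4% in either direction). Since the genes were chosen on this contrast, nothing is read from these counts.

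**Figure D1:**
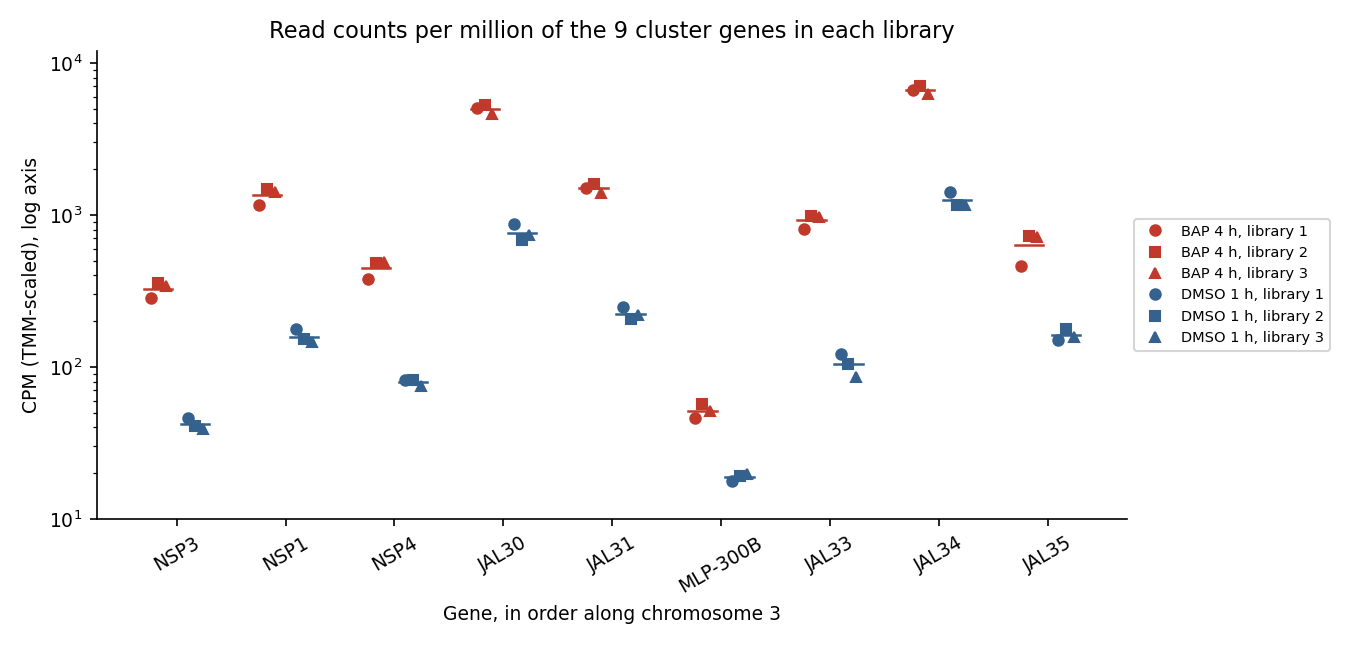
Normalised counts of the 9 cluster genes, in CPM with TMM-scaled library sizes on a log axis, in chromosome order. Points are single libraries (BAP in red, left, and DMSO in blue, right) and lines are group means. For JAL35 the BAP libraries lay at 462, 725 and 714 CPM, all above the highest DMSO library at 177 CPM.

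Among the NSP genes, NSP1, which raises nitrile formation from glucosinolates in Arabidopsis seedlings, was the most abundant. It was at 1155, 1483 and 1415 CPM in the BAP libraries and at 176, 153 and 145 CPM in the DMSO libraries. The group means were 1351 ± 173 and 158 ± 16.1 CPM (SD, n = 3 each), a log2 fold change of 3.09 ± 0.13 (SE). The lowest BAP library was still 6.56 times the highest DMSO library.

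NSP3, at the edge of the run, followed NSP1 closely at a lower level. It had 284, 355 and 343 CPM in BAP roots and 45.8, 40.9 and 39.2 CPM in DMSO roots, a log2 fold change of 2.96 ± 0.11. NSP1 had 4.06 to 4.18 counts for each count of NSP3 in BAP libraries and 3.70 to 3.84 in DMSO libraries, so both genes differed between the groups by nearly the same factor. NSP4, which carries the longer coding sequence of 1860 bases against 1413 in NSP1, had 377, 481 and 488 CPM in BAP roots and 81.5, 82.3 and 75.1 CPM in DMSO roots. Its log2 fold change was 2.49 ± 0.11, below that of the other NSP members. The ratio of NSP1 to NSP4 counts was 2.90 to 3.08 in BAP libraries and 1.86 to 2.16 in DMSO libraries, without overlap. In all 3 NSP genes BAP 1 was the lowest BAP library.

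The lectin genes JAL34 and JAL30 were the most abundant members by CPM. JAL34 had 6581, 7082 and 6243 CPM in the BAP libraries and 1422, 1157 and 1153 CPM in the DMSO libraries. Its means of 6635 ± 422 and 1244 ± 154 CPM (SD, n = 3 each) gave a log2 fold change of 2.42 ± 0.13. JAL30, named PBP1 for its binding to PYK10, had 5033, 5274 and 4574 CPM in BAP roots and 864, 682 and 734 CPM in DMSO roots. Its log2 fold change was 2.71 ± 0.13, and the lowest BAP library was 5.29 times the highest DMSO library.

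JAL31, the close copy of JAL30, had 1504, 1591 and 1400 CPM in BAP roots and 249, 205 and 219 CPM in DMSO roots, a log2 fold change of 2.74 ± 0.11. JAL31 had between 0.288 and 0.306 counts for each count of JAL30 in all 6 libraries. The pair thus kept nearly the same ratio, although JAL30 was 6.53-fold and JAL31 6.68-fold higher in BAP roots. By contrast JAL34 had 1.31 to 1.37 counts per JAL30 count in BAP libraries and 1.57 to 1.70 in DMSO libraries.

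JAL33 had the largest difference of the cluster. This mannose-binding lectin, also found in PYK10 complexes, had 808, 987 and 969.7 CPM in BAP roots and 121, 105 and 86.3 CPM in DMSO roots, a log2 fold change of 3.15 ± 0.14. Its neighbour MLP-300B, named for its likeness to myrosinase-binding proteins, had the smallest. It was at 46.2, 57.1 and 51.2 CPM in BAP roots and 17.9, 19.0 and 19.7 CPM in DMSO roots, a log2 fold change of 1.45 ± 0.09. The 2 genes are each other's closest relatives in the cluster by coding sequence (84.5% identity), and they are 643 bases apart. Even so JAL33 had 17.3 to 18.9 counts per MLP-300B count in BAP libraries and only 4.39 to 6.77 in DMSO libraries.

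JAL35, first described as JR1 for its response to jasmonate, was the most variable member in BAP roots. It had 462, 725 and 714 CPM in BAP roots and 151, 177 and 156 CPM in DMSO roots. BAP 1 stood well below the other BAP libraries but 2.62 times above the highest DMSO library. The means were 634 ± 148 and 161 ± 13.4 CPM (SD, n = 3 each) and the log2 fold change was 1.97 ± 0.17, the second smallest of the run.

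Ordered by log2 fold change, JAL33 came first, followed by NSP1, NSP3, JAL31, JAL30, NSP4, JAL34, JAL35 and MLP-300B. Neighbours in this order were closer than the sum of their standard errors, except NSP3 and JAL31 (0.22 apart), JAL34 and JAL35 (0.44) and JAL35 and MLP-300B (0.52).

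Because counts grow with transcript length, levels were compared between members as CPM per kilobase of exon (TAIR10.1). The deposited coordinates differ from TAIR10.1 at some gene ends, most for JAL35, whose lower end is base 5595929 there and 5595282 in TAIR10.1. The level of JAL35 may therefore be understated on this scale, and its order beside JAL33 in DMSO roots is uncertain. On this scale JAL30 led in BAP roots with 3298 ± 236, ahead of JAL34 with 2178 ± 139 (SD, n = 3 each), since the exons of JAL34 cover 3046 bases and those of JAL30 1504. JAL31 came next with 1032 ± 65.8, then NSP1 with 656 ± 83.9 and JAL33 with 616 ± 65.7, whose libraries overlapped. JAL35 (239 ± 56.0), NSP3 (189.7 ± 21.9) and NSP4 (186 ± 25.8) overlapped as well, and MLP-300B was lowest with 39.7 ± 4.21.

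In DMSO roots the order was nearly the same at a lower level. JAL30 had 505 ± 62.3 and JAL34 408 ± 50.6 CPM per kilobase (SD, n = 3 each), with overlapping libraries. JAL31 had 154 ± 15.2, NSP1 76.7 ± 7.80, JAL33 69.5 ± 11.6 and JAL35 60.8 ± 5.07, of which NSP1 overlapped with JAL33 and JAL33 with JAL35. NSP4 (33.0 ± 1.64) stood above NSP3 (24.3 ± 1.995) without overlap, and MLP-300B had 14.5 ± 0.70. Among 20950 genes ranked by mean CPM per kilobase, JAL30 was at rank 4 in BAP roots and rank 84 in DMSO roots, JAL34 at rank 7 and rank 130, and JAL31 at rank 24 and rank 599. MLP-300B was at rank 2901 in BAP roots and rank 7733 in DMSO roots.

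Together the 9 genes took 1.56%, 1.72% and 1.61% of all counts in the BAP libraries and 0.317%, 0.272% and 0.273% in the DMSO libraries. The exact 95% binomial interval, which covers counting error only, was 1.712% to 1.723% in BAP 2 and 0.2695% to 0.2741% in DMSO 2, so counting error was small beside the spread between libraries. The means of 1.63% ± 0.0787 and 0.287% ± 0.0254 (SD, n = 3 each) differed by a factor of 5.68. JAL30, JAL31 and JAL34 made up 75.4% to 80.7% of the cluster counts in BAP libraries and 78.0% to 81.0% in DMSO libraries.

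**Figure D2:**
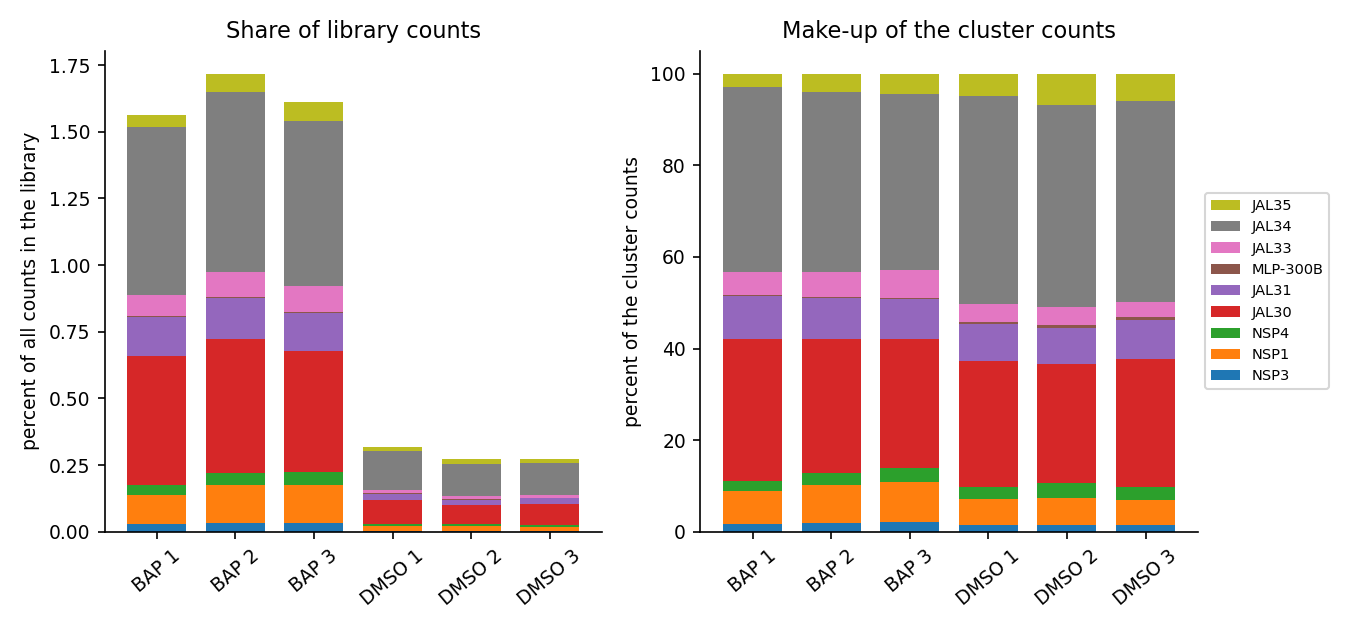
Left, percent of all counts in each library that fell on the 9 genes, which was 1.56% to 1.72% in BAP and 0.272% to 0.317% in DMSO. Right, the same counts as percent of the cluster total, each colour being 1 gene, where JAL34 and JAL30 filled most of every bar in both groups.

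Although the total differed between the groups, the make-up of the cluster counts differed less. JAL34 held 38.5% to 40.5% of them in BAP libraries and 43.9% to 45.5% in DMSO libraries. NSP1 held 7.11% to 8.74% in BAP libraries and 5.52% to 5.86% in DMSO libraries, and JAL33 4.97% to 5.99% in BAP libraries and 3.28% to 3.99% in DMSO libraries. JAL35 had a smaller part of the total in BAP libraries (2.84% to 4.41%) than in DMSO libraries (4.84% to 6.74%), although its own level was higher. MLP-300B held 0.284% to 0.317% in BAP libraries and 0.571% to 0.749% in DMSO libraries.

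Within the groups the members did not vary as one block. In BAP 1, JAL35 was farthest below the group mean on the log2 scale (-0.43), NSP4 (-0.24), NSP1 (-0.22), NSP3 (-0.20), JAL33 (-0.18) and MLP-300B (-0.15) were also low, and JAL30 (0.02), JAL31 (0.01) and JAL34 (-0.01) were at the mean. These 3 lectins were lowest in BAP 3 instead, at -0.11, -0.10 and -0.09. In the DMSO group, DMSO 1 was the highest library for 6 of the members, with JAL33 (0.23), JAL34 (0.20) and JAL30 (0.19) farthest from the mean. PYK10 was also highest in DMSO 1 (0.31) and lowest in BAP 3 among the BAP libraries (-0.19), as JAL30, JAL31 and JAL34 were. NSP2, an NSP gene on chromosome 2, was lowest in BAP 1 (-0.22), as the NSP genes of the cluster were.

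**Figure D3:**
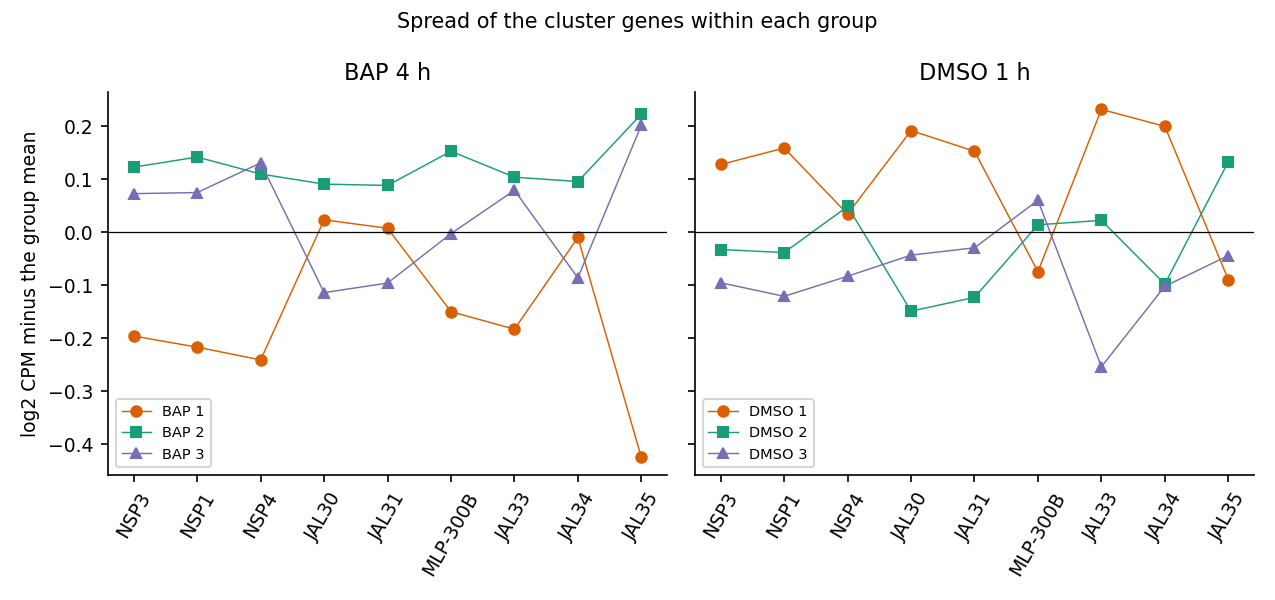
Log2 CPM of each cluster gene minus the mean of its group, for the 3 BAP libraries (left) and the 3 DMSO libraries (right). BAP 1 lay from 0.15 to 0.43 below the mean for NSP3, NSP1, NSP4, MLP-300B, JAL33 and JAL35 and within 0.03 of it for JAL30, JAL31 and JAL34.

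Beyond both borders of the run the counts of the nearest genes overlapped between the groups. PAB6 (AT3G16380), a poly(A)-binding protein gene 1577 bases before NSP3, had 7, 7 and 11 counts in BAP libraries and 3, 6 and 13 in DMSO libraries, too few to be tested. The next gene, AT3G16370, had 690, 682 and 982 counts in BAP libraries and 729, 834 and 943 in DMSO libraries, a log2 fold change of -0.01 ± 0.14 (edgeR adjusted p of 0.947). On the other side MPPalpha (AT3G16480), a subunit of the mitochondrial processing peptidase only 553 bases from JAL35, had 1356, 1297 and 1541 counts in BAP libraries and 1257, 1173 and 1422 in DMSO libraries (0.20 ± 0.09, edgeR adjusted p of 0.100). IQD26 (AT3G16490) behind it changed by -0.14 ± 0.23 (edgeR adjusted p of 0.654).

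**Figure D4:**
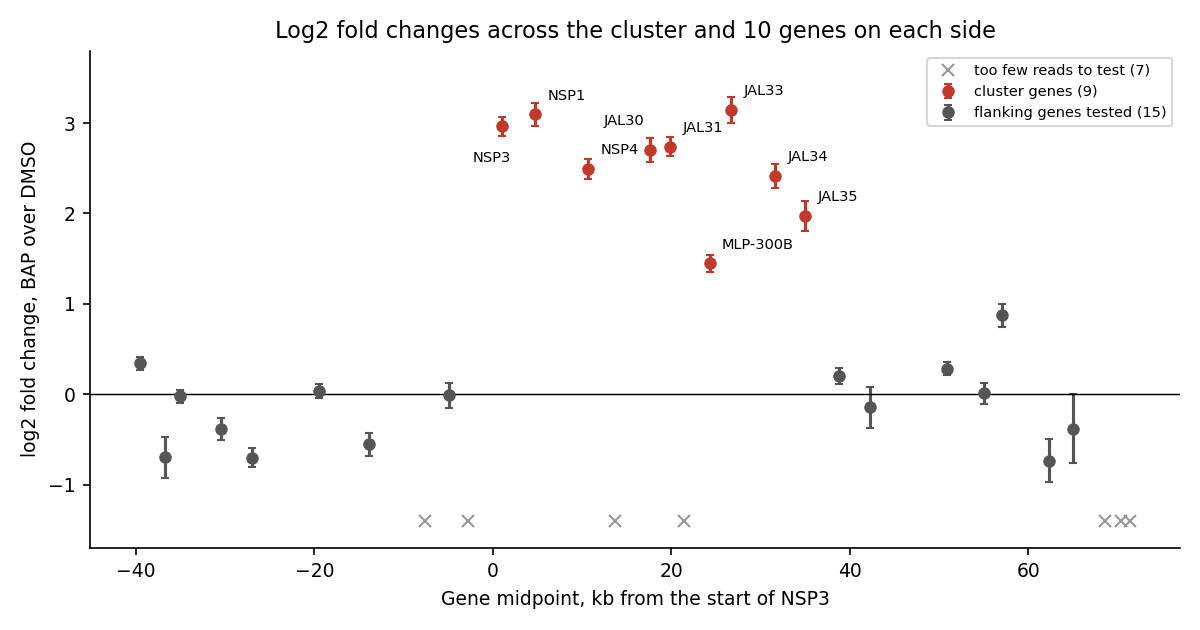
Log2 fold change of BAP over DMSO (bars, SE) against the position of each gene's midpoint in kb from the start of NSP3, for the cluster (red), the tested flanking genes (grey) and untested loci (crosses at the base, no value). The members lie between 1.45 and 3.15, and the flanking genes between -0.74 and 0.87.

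Of 10 genes on each side of the run, 15 were tested, 1 was called higher and 4 lower, beside 11.6% and 11.4% of all genes tested, and the median of the 15 log2 fold changes was -0.02. AT3G16330 (-0.70 ± 0.10, edgeR adjusted p of 8.96e-04), AT3G16350 (-0.55 ± 0.13, 0.00876), AT3G16530 (-0.74 ± 0.24, 0.0381) and AT3G16300 (-0.70 ± 0.23, 0.0390) were lower, and UGT88A1, a glucosyltransferase gene, was higher (0.87 ± 0.13, 0.00105). AT3G16350 had no call without BAP 1 (-0.44) or DMSO 2 (-0.49), AT3G16530 without BAP 1, BAP 2, DMSO 1 or DMSO 3, and AT3G16300 in 5 of the 6 fits that left out a library. UGT88A1 and AT3G16300 were named after their values were seen, as was AHP4, a phosphotransfer protein gene, which had 1, 0 and 1 counts in BAP libraries and 11, 9 and 15 in DMSO libraries. AHP4 did not pass the filter with all libraries, but it passed with no filter beyond 1 read and without BAP 1, BAP 2, BAP 3 or DMSO 2, and was called lower each time (log2 fold changes of -4.17 to -3.33, edgeR adjusted p of 0.00173 to 0.00744). The count of lower calls was 2 without BAP 1 (AT3G16330 and AHP4) and 2 without DMSO 3 (AT3G16330 and AT3G16350).

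The proteins that meet the lectins in PYK10 complexes are encoded elsewhere in the genome. Their list was chosen with earlier results of these data known, as were those of ER body, glucosinolate breakdown and jasmonate marker genes. Nothing is therefore read from the counts of calls in these lists. All 8 listed partner genes were tested and called higher, beside 11.6% of all genes tested, and the median of their log2 fold changes was 1.91. PYK10 (AT3G09260) had 320218, 337263 and 282372 counts in BAP libraries and 105156, 79214 and 78306 in DMSO libraries, a log2 fold change of 1.92 ± 0.18 (edgeR adjusted p of 8.53e-05). The GDSL lipase-like genes GLL22 (2.73 ± 0.12, edgeR adjusted p of 2.03e-06) and GLL23 (2.47 ± 0.11, 1.89e-06) changed most. JAL22 (2.02 ± 0.21, 1.50e-04), a lectin gene on chromosome 2, was at 102 ± 12.5 CPM in BAP roots and 25.2 ± 8.38 CPM in DMSO roots (SD, n = 3 each). The range of this list, 1.33 to 2.73, overlapped that of the cluster, 1.45 to 3.15.

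All 5 genes of the ER body itself were called higher, beside 11.6% of all genes tested, with a median of 2.40. NAI1, a bHLH transcription factor required for ER bodies, had 7660, 8395 and 7159 counts in BAP libraries and 725, 648 and 803 in DMSO libraries, and its log2 fold change of 3.50 ± 0.11 (edgeR adjusted p of 4.60e-07) was above that of every cluster member. NAI2, an ER body protein needed for their formation, changed by 2.74 ± 0.14 (2.89e-06), its homologue TSA1 by 2.40 ± 0.10 (1.19e-06) and the ER body membrane protein gene MEB1 by 1.92 ± 0.14 (1.96e-05).

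Glucosinolate breakdown was covered by 14 other genes, of which 9 were tested. The median of their log2 fold changes was 0.83, and 4 of the 9 passed as higher and 0 as lower, beside 11.6% and 11.4% of all genes tested. The higher calls numbered 6 without BAP 1, where the root myrosinase genes TGG4 (1.16, edgeR adjusted p of 0.00981) and TGG5 (1.19, 0.00625) were added. With all libraries they stood at 0.81 ± 0.39 and 0.83 ± 0.40 (edgeR adjusted p of 0.133 and 0.134) and their groups overlapped. Both were named after their values were seen. NSP2, the copy of the NSP genes on chromosome 2 with 86.7% coding identity to NSP1, had 1051, 1305 and 1378 counts in BAP libraries and 175, 162 and 162 in DMSO libraries, a log2 fold change of 2.98 ± 0.11 (edgeR adjusted p of 9.39e-07). NSP5 had 3208, 3514 and 3800 counts in BAP libraries and 3915, 2762 and 3580 in DMSO libraries (0.11 ± 0.13, edgeR adjusted p of 0.526), with overlapping groups. NIT1 (1.29 ± 0.12, 7.69e-05) and NIT3 (1.00 ± 0.07, 2.15e-05), nitrilases that act on nitriles, were higher. The epithiospecifier gene ESP had 3, 0 and 1 counts in BAP libraries and 0, 1 and 0 in DMSO libraries and was not tested. The fourth higher call was MBP2, a myrosinase-binding protein gene with 13, 30 and 21 counts in BAP libraries and 0, 1 and 1 in DMSO libraries, named here after its values were seen. PEN2, an atypical myrosinase, was at -0.46 ± 0.08 (edgeR adjusted p of 0.00300), which is under the minimum fold, and was called lower without BAP 2 (-0.50) or DMSO 3 (-0.52). It was the only gene of the list on the lower side at an unadjusted p under 0.05, and DESeq2 called 0 lower as well.

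**Figure D5:**
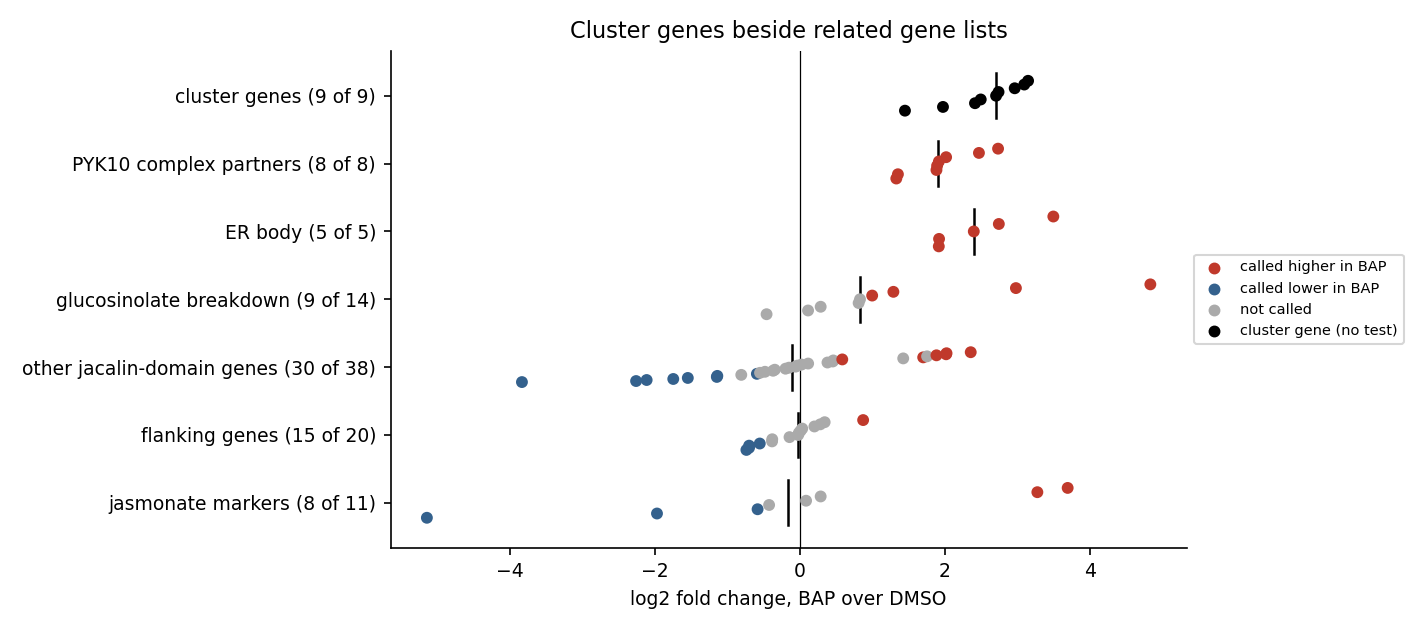
Log2 fold change of BAP over DMSO for each tested gene of the cluster (black) and of 6 other lists, with tested and listed gene numbers beside the names and a line at each median. The lines stand at 2.71 for the cluster, 1.91 for PYK10 complex partners, 2.40 for the ER body, 0.83 for glucosinolate breakdown, -0.10 for other jacalin-domain genes, -0.02 for flanking genes and -0.17 for jasmonate markers.

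Jacalin-domain genes elsewhere in the genome moved in both directions. Outside the cluster 38 further genes of the family were listed and 30 tested. NSP2, MBP1 and MBP2, whose products also carry such domains, were counted with glucosinolate breakdown and are not among the 38. Of these, NSP2 and MBP2 were called higher, and MBP1 was not tested. JAL22 and JAL23 are among the 38 and also among the PYK10 complex partners, so their higher calls count in both lists. The 30 log2 fold changes ranged from -3.83 to 2.36 around a median of -0.10, and 6 were called higher and 8 lower, beside 11.6% and 11.4% of all genes tested. The higher calls numbered 8 without BAP 1 and 4 without BAP 2 or DMSO 3. One of the 6, AT1G52060, named after its values were seen, had 18, 203 and 50 counts in BAP libraries and 14, 16 and 26 in DMSO libraries, with overlapping groups, and lost its call in 7 of 12 alternatives (edgeR adjusted p of 0.00961 to 0.171). JAL22, given above, and AT5G49870 (1.70 ± 0.10, edgeR adjusted p of 5.43e-06) were the higher genes with the largest change among those that averaged 10 CPM or more. AT5G38550 (-1.15 ± 0.13, 2.39e-04) and AT1G33790 (-0.59 ± 0.19, 0.0377) were lower, the last without a call when BAP 1, BAP 2 or any DMSO library was left out. JAL22 lies near JAL23 on chromosome 2, another pair of close copies (87.9% coding identity), and JAL23 changed by 1.88 ± 0.26 (6.52e-04), with 195, 289 and 241 counts in BAP libraries and 90, 75 and 42 in DMSO libraries.

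For each member the 3 genes outside the cluster with the most similar pattern were found among the 13243 genes that averaged 10 CPM or more, by the root mean square distance of log2(CPM + 1) around each gene's own mean over the 6 libraries. JAL30 and JAL31 were closest to each other (0.0265), and outside the cluster NAI2 was nearest to both (0.0405 and 0.0473), with ARR4, a type-A response regulator, and AT4G23420 in the next places. NSP2 was nearest to NSP3 (0.0602), ahead of NSP1 (0.0793). AT3G45680 was nearest to NSP1 (0.0594) and to JAL33 (0.0639), and NSP1 and JAL33 were 0.0759 apart. MLP-300B had AT5G38710 (0.0471) and the beta-glucosidase gene BGLU22 (0.0524) as neighbours and no member of the cluster nearer than JAL35 (0.313). JAL34 was nearest to AT1G22550 (0.0568) and TSA1 (0.0894), NSP4 to AT5G23820 (0.0862), and JAL35 to AT5G02170 (0.134). With 6 libraries in 2 groups such distances mostly reflect the size of the group difference.

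How far a count belongs to 1 gene was examined with 50-base words of exon sequence, a word being shared when it also occurs in the exons of another gene on either strand. MLP-300B and JAL33 had 0 shared words, and NSP3 (1.24%), JAL30 (1.53%) and JAL31 (1.53%) few. Words do not run across exon ends, so the stretch of 100 coding bases shared by JAL30 and JAL31, which spans an intron, was counted only in part. For reads of spliced RNA the share of this pair is therefore understated. NSP1 shared 27.5% of its words and NSP4 23.8%, 515 of them with each other, and reads from there could have been split between both genes or dropped. JAL34 shared 20.8% and JAL35 24.5%, since their exons overlap by 631 bases tail to tail in TAIR10.1, although their spans in the files are 211 bases apart. The library kit does not mark strand, so reads from that overlap cannot be told apart, and the counts of JAL34 may include reads from the end of JAL35. Of all genes 20.15% shared at least 10% of their words. With 25-base words the shares of NSP1 and NSP4 were 41.8% and 31.5%, and with 100-base words 19.8% and 18.2%.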

How the data were processed

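Each library has 1 deposited file, which lists unnormalized counts of reads for every gene. Per the study's methods and the submitters' processing notes, the authors checked the reads with FastQC, mapped them with Bowtie2 to TAIR10 and counted them with HTSeq. Versions, strand setting and what was done with reads that match several places are not given in the sources used here. Per the study, the experiment was done in triplicate and the sequenced samples were biological replicates. If replicates share a culture, the p-values measure only technical spread.

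Counts were tested with edgeR 4.0.16 (quasi-likelihood F test, filterByExpr with a minimum count of 10, TMM scaling, Benjamini-Hochberg adjustment over 20987 genes) in R 4.3.3, the treatment being the only term. The study tested with DESeq2, used here as an alternative (1.42.0). SE is the log2 fold change divided by the square root of F. The fit was tested on simulated data. A count of 0 allows up to 3 counts (0.149 to 0.150 CPM).

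Sequences, exon lengths and symbols came from RefSeq TAIR10.1, in which 32835 of 33602 identifiers were found. Coordinates of both builds were kept apart. Coding sequences were aligned with Biopython 1.88.

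The members and gene lists were chosen with earlier results of these data known. Named were all 9 members, per list up to 4 called genes that averaged 10 CPM or more and changed most, the flanking loci, PYK10, NAI1, NAI2, NSP2, NSP5 and ESP, and the 3 genes nearest in pattern to each member. Alternatives were other scalings and filters, the replicate number as a block, other fold minimums, each library left out, other word lengths and lengths made of unique words.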

Additional observations from a re-analysis of the deposited data

How the results depend on the processing

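All 9 members were higher in BAP under each of the 14 alternatives. Their median log2 fold change, 2.71, was 2.62 to 2.80 when a library was left out and 2.69 to 2.73 otherwise, and no member's value moved by more than the spread between libraries. Leaving out BAP 1 gave JAL35 2.16, its highest value. The counts of all genes called higher and lower were 3887 and 4061 with no minimum fold change, and 1099 and 1072 with the minimum raised to 1 on the log2 scale. Among flanking genes, 3 were called higher with no minimum fold change, and 0 higher and 0 lower with the minimum of 1. Leaving out a library gave 2 to 4 lower flanking genes, and 0 to 1 lower genes of glucosinolate breakdown, where no minimum fold change gave 1. The replicate numbers were not taken as pairs. The labels name no shared batch, and the deviations of same-numbered BAP and DMSO libraries correlated across genes with r of 0.213, 0.0627 and 0.323. With the replicate number as a block the median of the cluster was 2.71, 9 members were called higher, and 2474 and 2455 of all genes were called higher and lower. The block added TGG4 (0.74, edgeR adjusted p of 0.0438), TGG5 (0.76, 0.0323) and AT1G52050 (1.28, 0.0483) as higher and AT1G52110 (-0.83, 0.0361) as lower. BAP 1 and BAP 3 correlated best with the DMSO library of their own number, and BAP 2 with DMSO 1 (0.0926). Differently numbered libraries had r from -0.308 to 0.0926. Whether same-numbered libraries came from 1 repeat of the experiment is therefore not settled, and the main fit leaves such a link out. Counting only unique words as length raised the CPM per kilobase of NSP1 to 974 in BAP and 114 in DMSO, and that of JAL34 to 2990 in BAP and 560.5 in DMSO. Since words do not run across exon ends, this length fell for members without shared words too, from 1299 to 1103 bases for MLP-300B. The counts were left unchanged, which takes all reads from shared words as dropped, and that is not known. For JAL34 it does not hold throughout, since JAL34 reaches base 5595717 in the deposited coordinates and JAL35 begins only at base 5595929. Reads from their TAIR10.1 overlap up to base 5595717 lie in the span of JAL34 alone, so its raised values may be too high. On the length of unique words NSP1 (833 to 1069) no longer overlapped JAL33 (599 to 731) in BAP. NSP4 (272) came above NSP3 (217) in BAP, and JAL35 (89.9) above JAL33 (77.0) in DMSO. Depth was not limiting for the members, whose lowest count was 361, while PAB6, ESP and the loci between the members were too low to compare.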

Other observations

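Since JAL35 was first named for its response to jasmonate, a wound and defence hormone, 11 jasmonate marker genes were examined beside it. They did not move together. Of 8 tested, 2 were called higher and 3 lower in BAP, beside 11.6% and 11.4% of all genes tested. The vegetative storage protein gene VSP1 had 257, 572 and 655 counts in BAP libraries and 61, 47 and 53 in DMSO libraries (log2 fold change 3.28 ± 0.35 SE, edgeR adjusted p of 1.53e-04). Its copy VSP2 had 123, 324 and 418 in BAP libraries and 21, 24 and 25 in DMSO libraries (3.69 ± 0.45, 3.59e-04). In both genes BAP 1 was the lowest BAP library, as it was for 6 cluster members, JAL35 among them. It was also lowest for the markers AOS, OPR3, JAZ1, JAZ10 and MYC2, so this trait is not particular to JAL35 and the VSP genes.

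On the other side stood OPR3, an enzyme of jasmonate synthesis (-0.58 ± 0.10, edgeR adjusted p of 0.00176), the repressor gene JAZ10 (-1.97 ± 0.28, 8.58e-04) and the aminotransferase gene TAT3. TAT3 had 10, 11 and 10 counts in BAP libraries and 329, 251 and 594 in DMSO libraries (-5.15 ± 0.41, 3.45e-05). The regulator MYC2 (0.09 ± 0.14, 0.673) and JAZ1 (0.29 ± 0.16, 0.195) overlapped between the groups. Of these genes VSP1 and OPR3 were named by rule, and the others after their values were seen.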
